A study of Glycine max with 16 samples.

Results

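In a chromatin immunoprecipitation (ChIP-seq) map of LEAFY COTYLEDON1 (LEC1) in soybean embryos, 1 set of sites is described here. It holds the peaks found with an antibody against a GmLEC1 peptide that no peak of an antibody against recombinant GmLEC1 overlapped. A peak is a stretch of the genome that the authors called as enriched. A peptide-antibody peak was a member when it shared no base with any anti-recombinant peak of any stage. Of the 49566 peaks in the peptide-antibody list, 2701 met this rule, which is 5.45% of that list (exact 95% interval 5.25 to 5.65). The other 46865 peaks, called shared peptide peaks below, overlapped at least 1 anti-recombinant peak by 1 bp or more. The members were chosen by the measured peak positions of all 4 lists, so their lack of a partner is a definition and not a result.

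All embryos came from Glycine max cultivar Williams 82, with no transgene or mutation given in the labels. The peptide antibody was used on embryos at early maturation (EM), dissected from seeds that measured 6 to 7 mm. The antibody against a recombinant GST-GmLEC1 protein was used on cotyledon-stage embryos (COT) from seeds 2.5 to 3.5 mm long, on EM embryos of the same size class, and on mid-maturation embryos (MM) from seeds weighing 200 to 250 mg. Each of these 4 combinations had 2 ChIP and 2 input (total chromatin) libraries, from 2 biological replicates, and each is represented by 1 peak list. The peptide antibody has no COT or MM list here, so a peak counts as peptide-only relative to these 4 lists.

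LEC1 is the B subunit of a nuclear factor Y (NF-Y) complex. NF-Y complexes join a B and a C subunit, which fold together much like a pair of histones, to an A subunit that recognises the CCAAT box in DNA. LEC1 is known as a central regulator of embryo development, and in maturing seeds it acts with other transcription factors on genes for photosynthesis, storage protein and lipid accumulation. An antibody raised against a peptide is directed at a short stretch of a protein, whereas one raised against recombinant protein can recognise several stretches.

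Because each stage and antibody is represented by a single list, the error between replicates is unknown and no test of a difference was made. Sequencing depth is unknown. The intervals below are exact binomial (Clopper-Pearson) intervals at 95% and cover counting error only, since neighbouring peaks are not independent. The score is the authors' own value for each peak, its scale is not given in the sources used here, and it was used to rank peaks within the peptide list, where place 1 is the highest score. The build is named Gmax275 in the peak names. No gene annotation or sequence of that build was used here, so the regions are given by position, 1-based, and not by gene.

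The peptide-only peaks were among the low-scoring and narrow peaks of their list. Their scores ran from 2.23 to 3.79 with a median of 2.53, against a median of 3.40 and a highest score of 6.46 for the shared peptide peaks. The highest-placed peptide-only peak was in place 15978 and the median one in place 45022, against a median place of 23442 for the shared peaks. Both sets reached the foot of the list, so their ranges overlapped. The members were absent from the upper part of the list and piled up at its end.

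The 3 highest-scoring deciles of the list (bins of 10% of its peaks) held 0 members among 4956 or 4957 peaks each, where the exact interval for a decile reached 0.0744%. The fourth decile held 4 members, the fifth 7, the sixth 48 and the seventh 113. In the eighth decile 375 peaks were members (7.57%, interval 6.85 to 8.34), in the ninth 725 (14.6%, 13.7 to 15.6) and in the lowest-scoring decile 1429 (28.8%, 27.6 to 30.1). The share of members was larger at each step from the third decile down. The lowest decile alone contained 52.9% of all members, and the lower-scoring 50% of the list 2690 of 2701. Even in the lowest decile the 1429 members were outnumbered, by 3528 shared peaks.

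**Figure D1:**
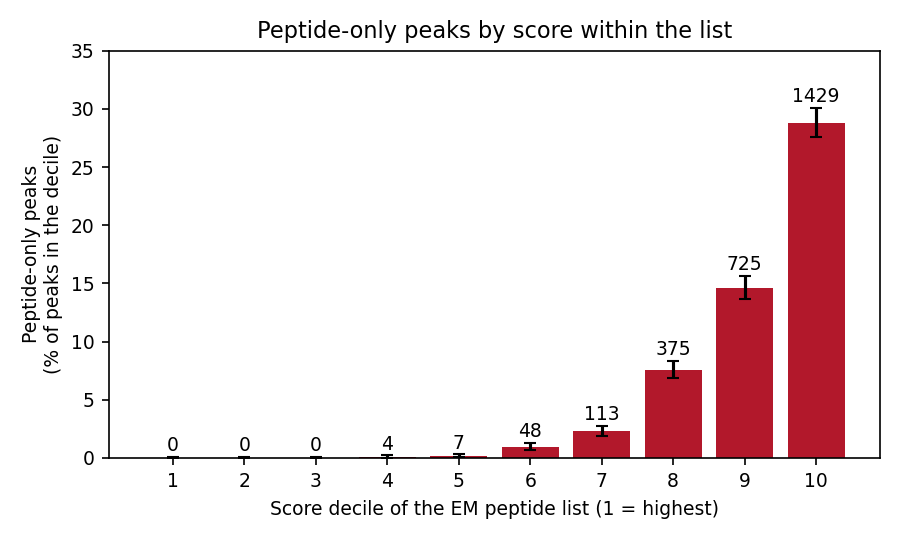
Share of the EM peptide list's peaks that were peptide-only (vertical axis, %) in each decile of the list by score (horizontal axis, 1 = highest), with exact 95% binomial intervals and the number of peptide-only peaks above each bar. The 3 highest-scoring deciles held 0, and the lowest held 1429, or 28.8%.

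Peak widths are multiples of 50 bp, with a minimum of 100 bp in every list. The peptide-only peaks had a median width of 150 bp, with quartiles of 100 and 200 bp and a maximum of 700 bp. The shared peptide peaks had a median of 350 bp, with quartiles of 200 and 450 bp and a maximum of 2350 bp. Widths of 100 or 150 bp made up 66.5% of the peptide-only peaks (64.6 to 68.2) and 14.2% of the shared peaks (13.9 to 14.5). Width comes from the same positions that the rule used, and a narrow peak has fewer bases to share with a partner. The width contrast, and the share of members by width given below, thus depend in part on the rule. Width and score went together in the list (Spearman's rho 0.636 across the 2701 members, 0.828 across the shared peaks). The share of members by score decile may therefore also depend in part on the rule, which was not tested. For the same reason the shared peaks of the lowest-scoring decile are the closer comparison. The members of that decile had a median width of 100 bp, and 88.1% of them were 100 or 150 bp wide. Among its 3528 shared peaks the median width was 150 bp and 79.9% were 100 or 150 bp wide.

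**Figure D2:**
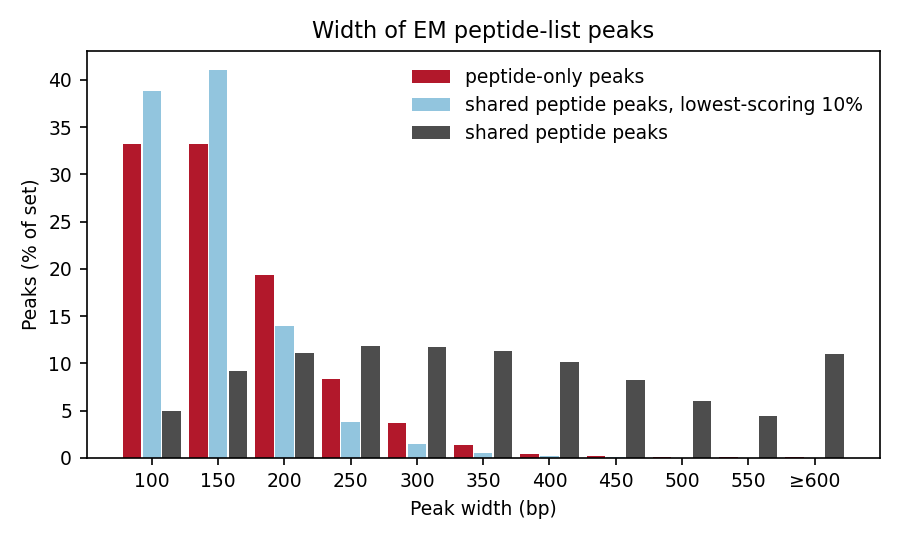
Width of peaks in the EM peptide list (horizontal axis, bp) as a percentage of each set (vertical axis) for the peptide-only peaks, for the shared peptide peaks in the lowest-scoring 10% of the list, and for all shared peptide peaks. Widths of 100 or 150 bp made up 66.5% of the peptide-only peaks, 79.9% of the shared peaks in the lowest decile and 14.2% of all shared peaks, and within the lowest decile 88.1% of the peptide-only peaks.

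Read by width, 898 of the 3234 peptide-list peaks of 100 bp were members (27.8%, 26.2 to 29.3), as were 897 of those of 150 bp (17.2%, 16.2 to 18.2) and 522 of those of 200 bp (9.08%, 8.35 to 9.86). At 300 bp the share was 1.79% (1.46 to 2.17), and above 400 bp 11 members stood against 13866 shared peaks. Members also scored lower than shared peaks of the same width. At 100 bp the median score was 2.41 for members and 2.50 for shared peaks, a difference of -0.09. At 200 bp it was 2.68 for members and 2.83 for shared peaks, and at 300 bp it was 2.86 for members and 3.33 for shared peaks, so that the difference reached -0.47. Members thus stood lower at matched width too, and the score ranges of both sets overlapped at each of these widths.

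Peptide-only peaks were a minority of the peptide peaks that lacked an EM partner. At EM, the stage both antibodies were used on, 8607 peptide peaks had no anti-recombinant peak, and 5906 of these (68.6%) overlapped an anti-recombinant peak of COT or MM. The 2701 members are the remaining 31.4%. In the whole peptide list only the members (5.45%) and the peaks overlapped by EM alone (1.80%) had no COT or MM partner. Such a partner was thus less frequent among peaks without an EM partner than in the list at large. Of the 5906, 2516 overlapped MM alone, 1190 COT alone, and 2200 both COT and MM. The 4 classes differed in width and place: the median width was 150 bp for members and for peaks with COT alone, and 200 bp for those with MM alone or with both. The median place was 45022 for members, 43562.5 with COT alone, 41537 with MM alone and 38006.5 with both, so members stood lowest. Peptide peaks overlapped by EM alone, 891 in all, had a median width of 200 bp and a median place of 40971. The 32146 peptide peaks with partners at all 3 stages had a median width of 400 bp and a median place of 16978.5.

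The same rule can be turned on each of the 4 lists, taking the peaks that overlap no peak of the other 3. It gave 2701 peaks in the EM peptide list (5.45%, 5.25 to 5.65), 6978 in the COT list (13.5%, 13.2 to 13.8), 3626 in the EM list (6.58%, 6.37 to 6.79) and 9624 in the MM list (15.0%, 14.7 to 15.3). The peptide list had the smallest share, and the lists from the EM stage both had smaller shares than those from COT and MM. Each EM-stage list has another list of its own stage among the other 3, whereas COT and MM have none. The shares are therefore not like for like between stages. The lists also differ in length, and the order of the shares changed when each was held to its 49566 highest-scoring peaks. The numbers were then 4239 for the EM peptide list, 7777 for COT, 3505 for EM and 4540 for MM. Peaks of 1 list were narrow in every list as deposited, with median widths of 150 bp in the EM peptide, COT and EM lists and 200 bp in the MM list. In the higher-scoring 50% of its list the EM peptide antibody had 11 such peaks (0.407% of them), against 544 at COT (7.80%), 71 at EM (1.96%) and 747 at MM (7.76%). The same limit on comparing stages applies to these counts.

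The 11 peptide-only peaks in the higher-scoring 50% of the list lay on 9 chromosomes, in places 15978 to 24023. They were 200 to 700 bp wide with a median of 300 bp. Their gap to the nearest anti-recombinant peak, counted as the bases between the edges, ran from 0 to 10000 bp with a median of 1300 bp. An anti-recombinant peak lay within 1 kb of 5 of them, where 47.1% of all members had one. For 8 of the 11 the nearest EM peak was more than 1 kb away. Most members were like them in this, since 33.8% of all members had an EM peak within 1 kb. The 5 highest-scoring are described 1 by 1.

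The highest-scoring peptide-only peak, in place 15978, lay on chromosome 12 at 8396751 to 8397050. Its nearest neighbours lay on the same side at all 3 stages and were low in their lists: a COT peak 600 bp away in place 41474, an EM peak 500 bp away in place 34444 and an MM peak 550 bp away in place 44566. The second, in place 17595, lay on chromosome 6 at 21557751 to 21558450 and at 700 bp was the widest of all members. A COT peak of 200 bp began 100 bp beyond it, while the nearest EM and MM peaks, both at 21521651 to 21522050, were 35700 bp away. These 2 peaks thus differed in setting, the first beside a group of anti-recombinant peaks and the second with a COT peak nearby and none of EM or MM.

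The third, in place 19180, lay on chromosome 16 at 29588751 to 29589050. Its nearest EM peak was 2200 bp away and 100 bp wide, and the nearest COT and MM peaks were 5350 and 5400 bp away. The fourth, in place 19815, lay on chromosome 11 at 4398401 to 4398600, with a COT peak at 600 bp, an EM peak at 700 bp and an MM peak at 800 bp. It sat between anti-recombinant peaks on either side without touching them. The fifth, in place 22351, lay on chromosome 6 at 11328201 to 11328600, with its nearest COT peak at 1450 bp, its nearest MM peak at 1800 bp and its nearest EM peak at 7150 bp.

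**Figure D3:**
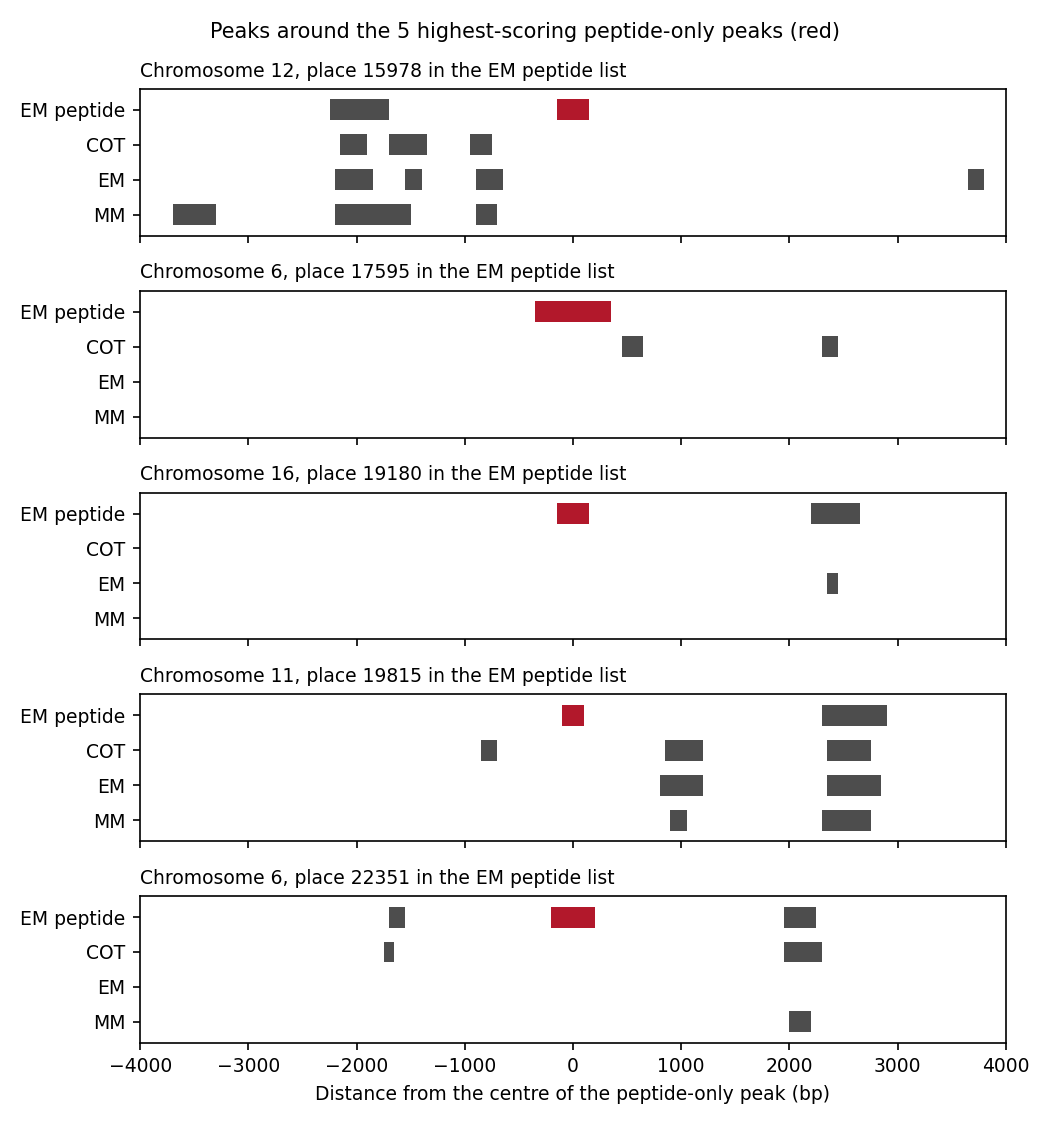
Peaks of the EM peptide list and of the COT, EM and MM anti-recombinant lists within 4000 bp of the centre of each of the 5 highest-scoring peptide-only peaks (red), drawn to scale. The peptide-only peak on chromosome 12 has anti-recombinant peaks of all 3 stages 500 to 600 bp away, whereas the one in place 17595 on chromosome 6 has a COT peak at 100 bp and no EM or MM peak in view.

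Peptide-only peaks lay about as close to an anti-recombinant peak as shared peptide peaks did to the nearest one that they did not overlap. The median gap was 1150 bp for peptide-only peaks and 1300 bp for shared peaks, with quartiles of 350 and 3250 bp against 500 and 3400 bp. An anti-recombinant peak lay within 1 kb of 1272 members (47.1%, 45.2 to 49.0), and 43.5% of all peptide-list peaks had a non-overlapping one at that distance. In the lowest-scoring decile the shares were 47.2% for members and 47.1% for shared peaks. At 1 kb the members were thus near the background of their list. A distance over 10 kb was found for 167 members (6.18%) and for 6.90% of shared peaks.

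The shares at shorter range are a description that depends on the rule, since a shared peak's overlapping partner is left out of its neighbours and takes up part of the space beside it, while a member has none. An anti-recombinant peak lay within 100 bp of 374 members (13.8%, 12.6 to 15.2), against 5.59% of all peptide-list peaks and 5.11% of shared peaks (4.92 to 5.32). Among members of the lowest-scoring decile the share was 15.0% (13.2 to 17.0), and among shared peaks of that decile 11.7% (10.7 to 12.8), so the difference was smaller at matched score. At a width of 100 bp it was 17.9% for members and 13.4% for shared peaks, and at 200 bp it was 10.7% for members and 5.61% for shared peaks. The difference had the same sign at each width from 100 to 400 bp and was not tested.

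**Figure D4:**
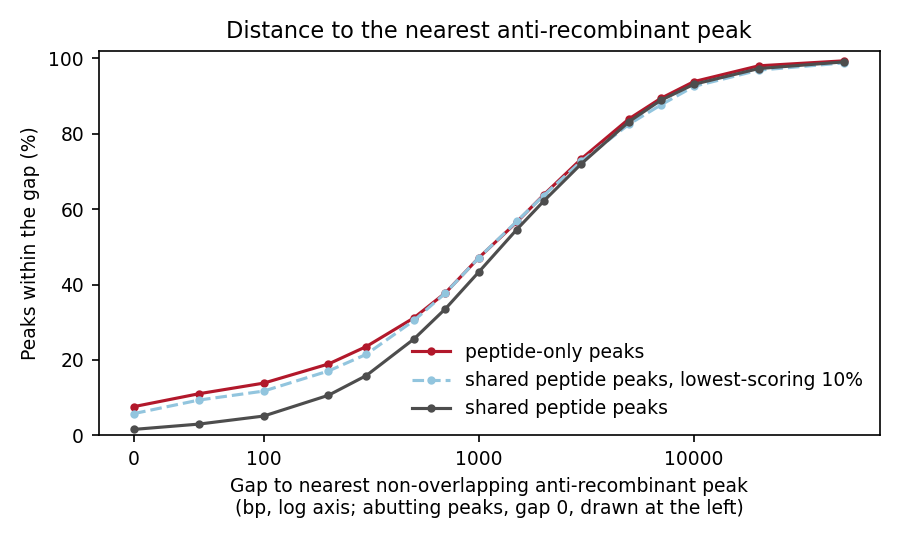
Percentage of peaks (vertical axis) whose nearest non-overlapping anti-recombinant peak of any stage lies within the gap on the horizontal axis (bp, log axis, with abutting peaks at the left), for peptide-only peaks, for shared peptide peaks in the lowest-scoring 10% of the list and for all shared peptide peaks. At 100 bp the curves stand at 13.8, 11.7 and 5.11%. Those of the peptide-only peaks and the low-scoring shared peaks are close from 500 bp on, at 31.2 and 30.5%, and all 3 are close at 10 kb, at 93.8, 92.5 and 93.1%.

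The list nearest to a member was most often MM, the longest list, as it was for the peptide list at large. The nearest non-overlapping anti-recombinant peak, ties included, was an MM peak for 53.9% of members and 57.2% of shared peaks. It was an EM peak for 40.4% of members and 41.1% of shared peaks, and a COT peak for 32.3% of members and 30.3% of shared peaks. A peak within 1 kb was found in the COT list for 832 members, in the EM list for 914 and in the MM list for 993. These counts rose with the length of the lists (51845, 55140 and 64146 peaks) and have no matching share of shared peaks here. All 3 lists had a peak within 1 kb for 573 members (21.2%, against 20.01% of shared peaks), and 2 lists for 321 (11.9%, against 10.9%). For 378 members (13.99%, against 12.5%) 1 list had one, while 1429 members (52.9%, against 56.7%) had none. At shorter distances most members still had none, and 1 list became more frequent than all 3. Within 500 bp all 3 lists had a peak for 293 members (10.8%, against 8.08% of shared peaks). At that distance 1 list had one for 328 (12.1%, against 10.2%). Within 100 bp it was all 3 lists for 24 (0.889%, against 0.117%) and 1 list for 272 (10.1%, against 4.15%). Shared peaks showed the same change with distance. The shares at 1 kb were close to those of the shared peaks, so they say little about the members. Those at shorter range depend on the rule, as described above.

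The 3 stages' peaks merge into 78759 anti-recombinant regions, and for the 1272 members with a region within 1 kb the nearest region was classed by the stages that called it. It was called at all 3 stages for 501 members (39.4%), against 45.4% for shared peaks of the lowest-scoring decile with a region that near and 46.8% for all such shared peaks. It was called at EM alone for 133 members (10.5%), against 6.81% for the low-scoring shared peaks and 6.72% for all shared peaks. For COT alone the values were 165 members (12.97%), against 11.5 and 10.2%, and for MM alone 185 members (14.5%), against 14.8 and 13.7%. Regions called at all 3 stages were the most frequent neighbours in each set. A region that overlaps a peptide peak cannot be its neighbour here, and the differences were not tested. Of the neighbouring peaks within 1 kb, 50.3% overlapped another peak of the peptide list, against 70.7% of all anti-recombinant peaks. The nearest neighbours of shared peaks in the lowest decile gave a like value, 51.9%.

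At the edge of the rule stand the members that abut an anti-recombinant peak with no base between. There were 206 of them (7.63%, 6.65 to 8.69, against 1.91% of all peptide-list peaks), and in the lowest-scoring decile 8.19% of members (6.82 to 9.73) and 5.78% of shared peaks (5.03 to 6.60) abutted one. Of the 206, 81 abutted a COT peak, 85 an EM peak and 67 an MM peak. Their neighbours were low-scoring and narrow as well: the median neighbour was 150 bp wide and stood at 84.2% of the way down its list by score, and 16.5% of the neighbours overlapped another peptide peak. Peaks abutting shared peaks of the lowest-scoring decile were alike, with 150 bp, 86.1% and 14.2%. For all shared peaks the values were 150 bp, 82.5% and 20.8%, so they are not particular to the members. Member and neighbour together spanned a median of 300 bp. Just outside the rule, 601 shared peptide peaks overlapped their longest partner by 1 bin of 50 bp. The abutting members had a median width of 150 bp and a median place of 45132.5, against a median width of 150 bp and a median place of 44787 for these shared peaks. The peaks on either side of the boundary thus resembled each other in width and place.

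The highest-scoring abutting member, in place 23450, lay on chromosome 7 at 35993601 to 35993900, directly beside an EM peak of 100 bp in place 54823. The next, in place 28689, lay on chromosome 2 at 46081801 to 46081950, beside a COT peak and an MM peak that both covered 46081951 to 46082150. An EM peak of 700 bp lay 50 bp from it. The third, in place 30233, lay on chromosome 6 at 11190551 to 11190900, at the edge of an MM peak of 800 bp in place 7921. An EM peak of 850 bp in place 4178 lay 50 bp away, and a COT peak of 700 bp in place 3260 lay 100 bp away. Another peak of the peptide list was also 50 bp away. Here the anti-recombinant side was a high-placed, wide site, unlike the first pair. On the other side of the boundary, the peptide peak in place 16616 on chromosome 13 at 44143651 to 44144000 shared 50 bp with an EM peak in place 53504. The peptide peaks on chromosome 5 at 39423051 to 39423400 and on chromosome 9 at 42610901 to 42611100 also shared 50 bp with an EM peak, in place 11252 on chromosome 5 and in place 19949 on chromosome 9. The peptide peak on chromosome 9 shared 50 bp with an MM peak in place 56601 as well.

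The far end of the distances lay in regions poor in peaks. The most distant member was on chromosome 19 at 12292751 to 12292850, 243150 bp from the nearest anti-recombinant peak, an MM peak. A second peak of chromosome 19, at 12600601 to 12600800, was 142250 bp from an EM peak. The others of the 5 most distant were on chromosome 15 at 25414401 to 25414500, 181550 bp from a peak of all 3 stages, on chromosome 18 at 34692401 to 34692550, 151350 bp from an MM peak, and on chromosome 4 at 36131201 to 36131350, 115500 bp from an MM peak. These 5 were 100 to 200 bp wide and in places 44285 to 48619, where the members' median place was 45022. The most isolated members were thus narrow and low in the list, as most members were. They were also far from other peptide peaks, by 115650 bp or more.

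The surroundings of the members held about as many other sites as those of shared peaks. Within 10 kb on either side lay a median of 4 other anti-recombinant regions for peptide-only peaks and 3 for shared peaks, and within 100 kb a median of 33 for peptide-only peaks and 32 for shared peaks. The nearest other peak of the peptide list itself was within 1 kb for 30.0% of members and 29.1% of shared peaks. Another member lay within 1 kb of 85 of the 2701 members (3.15%), in 43 adjacent pairs, whereas 1.74% of shared peaks had a member within 1 kb. Of the 810 members with any peptide peak within 1 kb these are 10.5%, against 5.99% of the shared peaks with such a neighbour. Within 10 kb, 392 members (14.5%) had another member, a count without a matching share of shared peaks here. Most members thus had no other member nearby, and the difference from shared peaks at 1 kb was not tested.

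Along the chromosomes the peptide-only peaks followed the distribution of the list they came from, with most near the ends. The outer 20% of length at either end held 71.2% of the members on chromosomes (69.5 to 73.0) and 68.7% of the shared peptide peaks (68.2 to 69.1). The chromosome centres, from 25 to 75% of length, held 19.7% of members (18.2 to 21.3) and 21.6% of shared peaks (21.2 to 22.0), and 23.0% of the shared peaks in the lowest-scoring decile (21.6 to 24.4). The share of members in the centre was below that of shared peaks on 13 of 20 chromosomes. Chromosome 13 had most of its peaks in the centre, 53.6% of its members and 55.7% of its shared peaks. Without it the centres held 17.3% of members and 18.9% of shared peaks. These differences were small, and they were not tested.

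**Figure D5:**
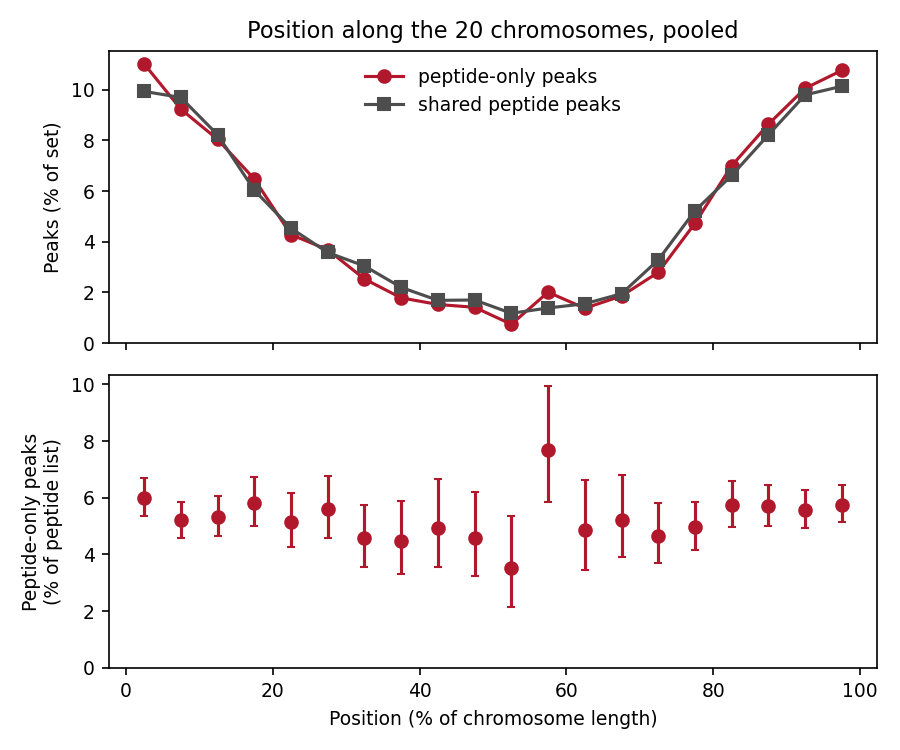
Upper panel: percentage of peptide-only peaks and of shared peptide peaks (vertical axis) in each 5% of chromosome length (horizontal axis), the 20 chromosomes pooled. Lower panel: peptide-only peaks as a percentage of the EM peptide list's peaks in the same bins, with exact 95% binomial intervals, which runs from 3.51% at 50 to 55% of length to 7.70% at 55 to 60%.

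By 5% bins of length, members made up 3.51 to 7.70% of the peptide list. The highest value, at 55 to 60% of length, came from 54 members among 701 peaks (interval 5.84 to 9.93), of which 21 were on chromosome 13 and 9 on chromosome 9. Without chromosome 13 that bin held 33 members among 481 peaks (6.86%). The neighbouring bin, at 50 to 55% of length, was the lowest, with 20 of 570 peaks. These bins were picked as the highest and lowest of all bins, and their difference from the overall share was not tested.

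Each of the 20 chromosomes carried peptide-only peaks, 77 to 179 of them, and they made up a similar part of the peptide list on each. The share was highest on chromosome 15, with 150 of 2338 peaks (6.42%, 5.46 to 7.49), and lowest on chromosome 16, with 77 of 1657 (4.65%, 3.68 to 5.77). The exact interval held the overall 5.45% on 19 of 20 chromosomes, chromosome 15 being the exception by a narrow margin. Chromosome 13 had most members per Mb, 3.91, and was also densest in all peptide peaks, with 77.1 per Mb. Chromosome 16 had fewest members, 2.03 per Mb, while all peptide peaks were sparsest on chromosome 18, with 39.99 per Mb against 43.8 on chromosome 16. Unplaced scaffolds held 16 members among 260 peptide peaks, on 7 scaffolds. The members were thus spread roughly in proportion to the list.

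In windows of 1 Mb, 645 of 956 windows held at least 1 member, and the windows with a peptide peak held a median of 2. Member counts followed the counts of shared peptide peaks across the 945 windows with a peptide peak (Spearman's rho 0.839, a description over windows that share regional density). The window with most members was on chromosome 4 at 3000001 to 4000000, with 14 among 162 peptide peaks (8.64%, 4.81 to 14.1). The next were on chromosome 4 at 5000001 to 6000000, with 13 of 121 (10.7%, 5.85 to 17.7), and on chromosome 5 at 1000001 to 2000000, with 13 of 111 (11.7%, 6.39 to 19.2). The interval of the first holds the overall share, and those of the other 2 lie above it, but they were picked as the highest of all windows. In all, 40 windows with 10 or more members accounted for 432 of them, a count without a matching share of shared peaks here.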

How the data were processed

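ChIP and input libraries came from tissue fixed in 1% formaldehyde for 10 minutes and sheared to 100 to 500 bp, with 3 ug of antibody and 15 PCR cycles, per the labels' protocols. The authors deposited 4 peak lists with a score per peak. Per the submitters' processing notes, the tools included Bowtie 0.12.7 and SAMtools 0.1.19. Not given in the sources used here are the caller and its threshold, what the score measures, and whether replicates were pooled.

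All starts and widths in the 4 lists were multiples of 50 bp with the end read as the last base of a bin, and intervals were read that way. Overlaps, gaps and counts were computed with pandas 2.3.3 and scipy 1.17.1 in Python 3.11.15. Gaps exclude overlapping peaks. Chromosome length was taken as the last peak end in any list. The overlap code recovered all 6300 planted or brute-force relations in simulated data. The members, and the comparisons, were chosen with earlier results of these data known. Regions were named by rule: the 5 highest-scoring and 5 most distant members, the 3 fullest windows, the extreme chromosomes and the 3 highest-scoring peaks on either side of the boundary. The planned motif search was not run, since no sequence of this build was used here. Alternatives are in the closing section.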

Additional observations from a re-analysis of the deposited data

How the results depend on the processing

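The number of peptide-only peaks depended on what counted as a partner. Against 2701, it was 5995 when a partner had to overlap reciprocally by 50%, 4092 with midpoints within 100 bp, 14143 against the higher-scoring 50% of each anti-recombinant list, 4239 with these lists at the length of the peptide list, and 5217 without the MM list. Without the COT list it was 3891, without the EM list 3592, with edges within 100 bp counted as shared 2327, and without scaffolds 2685. The higher-scoring 50% of the peptide list held 11. The median width of 150 bp became 200 bp against the higher-scoring 50% of the anti-recombinant lists, 300 bp in the higher-scoring 50% of the peptide list, and 149 bp with ends as deposited. It was 150 bp in the other 8 alternatives. The share in the chromosome centres, 19.7%, was 9.09% among the 11 peaks of the higher-scoring 50% and 21.3% against the higher-scoring 50% of the anti-recombinant lists, and stayed inside its interval in the other 9.

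The share with an anti-recombinant peak within 1 kb, 47.1%, depended on the rule and on the lists searched. It was 76.2% under reciprocal overlap and 65.1% with midpoints, where members may overlap a peak. With edges within 100 bp counted as shared it was 38.6%. It was 23.7% against the higher-scoring 50% of the anti-recombinant lists, 40.6% with lists of equal length, 41.8% without COT, 44.8% without EM and 40.7% without MM. Peaks left out of a cut or dropped list were not counted as neighbours either. No paired analysis was possible because each stage and antibody has 1 peak list, with no value per replicate, and no replicate could be left out. The depth behind the lists is unknown, so how many partners fell under the authors' threshold was not tested.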
